A study of Mus musculus with 2 samples.

Results

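Imprinted genes are expressed mainly or only from the copy inherited from 1 parent. The 10 genes described here, Igf2, H19, Igf2r, Dlk1, Meg3, Peg3, Mest, Cdkn1c, Grb10 and Plagl1, were chosen by name as imprinted genes known for their part in fetal growth. They were matched by gene ID to symbols of GENCODE M21 on GRCm38. All 10 were found among the 43346 mouse gene IDs of the tables. Levels came from thymus, the organ in which T cells mature, of newborn C57/Bl6 pups (strain B6NCrl, postnatal day 0). There is 1 untreated group of 2 libraries. Pup 6 gave replicate 1 and pup 7 gave replicate 2, and both carry the same donor entry with sex not recorded. Each was made from 13 pg of total RNA longer than 200 nt, an amount the labels equate with 1 cell, with spike-in RNA added. The assay is labelled as single-cell sequencing, but the RNA came from whole tissue. With 1 group there was no comparison between conditions, and no p-value was computed.

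Imprinting rests on DNA methylation laid down differently in eggs and sperm and kept through development at control regions near each gene cluster. Many paternally expressed genes promote fetal growth and many maternally expressed genes restrain it. Most of the network is active in fetal and newborn tissue and is turned down as the animal grows. In the thymus, Igf2 is known as a product of stromal cells. Among the 10 genes, Igf2, Dlk1, Peg3, Mest and Plagl1 are known to be expressed from the paternal copy, and H19, Igf2r, Meg3, Cdkn1c and Grb10 from the maternal copy in most tissues. The tables hold no allele information, so the parental origin of the reads was not measured.

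The libraries held 27003123 and 32980032 expected counts, an estimate of reads that need not be whole. Mouse genes took 25999043 and 31902773 of them. A gene counted as read at 1 or more counts, which held for 10275 mouse genes of replicate 1 and for 11764 of replicate 2. The tissue label was checked against 18 T-lineage markers. All 18 were read in both libraries, and their levels summed to 17254 and 17162 TPM. TPM is a level per transcript length, scaled here to sum to 1000000 over mouse genes. Of 12 thymic epithelial markers 9 were read in both, with Foxn1, the master regulator of that epithelium, at 0 counts in replicate 1 and 1129 in replicate 2, and Cldn3 at 0 in both.

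H19 encodes a long noncoding RNA that also carries the hairpin of the microRNA Mir675. Its gene lies on chromosome 7 (142575529 to 142578143, minus strand) and the hairpin within it (142577064 to 142577147). The hairpin lies in an exon of 2 of the 5 annotated H19 transcript models. Those models, H19-202 and H19-205, held 98.3% of H19 TPM in replicate 1 and 98.2% in replicate 2. The microRNA itself could not be measured, because RNA was restricted to more than 200 nt and the hairpin entry had an effective length of 0 bases. Its mature arms are shown because nearly all the H19 RNA estimated here carries them, with the seed (bases 2 to 8) in capitals. Sequences are from RefSeq on GRCm38.p6.
mmu-miR-675-5p: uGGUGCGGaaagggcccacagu
mmu-miR-675-3p: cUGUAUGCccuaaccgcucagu
The hairpins Mir335, Mir483 and Mir770 lie within Mest, Igf2 and Meg3, and each was likewise listed at 0 counts with an effective length of 0. The 8 mature arms of the 4 hairpins have 8 different seeds.

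Igf2 and Mest are each known to be transcribed from several promoters, and the estimate divided their RNA unequally among transcript models in the 2 libraries. The 150 bases upstream of 2 start sites of each gene are therefore shown, from RefSeq on GRCm38.p6, written along the gene's strand with each CG dinucleotide, the site of DNA methylation, in capitals. The downstream Igf2 start is that of the model Igf2-201 (chr7:142657497-142657646, minus strand) and the far upstream start that of Igf2-203 (chr7:142666817-142666966, minus strand). The upstream Mest start is that of Mest-210 (chr6:30733356-30733505, plus strand) and the downstream one that of Mest-211 (chr6:30737900-30738049, plus strand).
Igf2-201: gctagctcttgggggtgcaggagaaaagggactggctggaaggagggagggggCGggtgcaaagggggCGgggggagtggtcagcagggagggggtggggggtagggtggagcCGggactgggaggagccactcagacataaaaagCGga
Igf2-203: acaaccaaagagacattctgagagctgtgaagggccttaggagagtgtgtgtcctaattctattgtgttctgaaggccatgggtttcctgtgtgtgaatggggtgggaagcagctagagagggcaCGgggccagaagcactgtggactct
Mest-210: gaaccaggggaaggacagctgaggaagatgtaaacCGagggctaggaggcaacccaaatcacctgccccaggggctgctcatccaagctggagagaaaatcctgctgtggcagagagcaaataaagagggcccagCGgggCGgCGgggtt
Mest-211: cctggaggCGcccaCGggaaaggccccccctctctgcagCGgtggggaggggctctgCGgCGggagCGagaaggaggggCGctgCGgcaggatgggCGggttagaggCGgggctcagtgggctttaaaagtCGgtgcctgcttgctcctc
These stretches hold 4, 1, 4 and 11 CG. Over the full 250 bases upstream, the counts of CG were 6 for Igf2-201 and 1 for Igf2-203, and 7 for Mest-210 and 14 for Mest-211. Among 32851 promoter windows of the same length, 50.4% held at least 6 CG, 92.1% at least 1, 46.3% at least 7 and 29.4% at least 14. The motif TATAAA, searched on both strands, was in none of these 4 windows and in 12.4% of all windows. Across the 15 windows of the 8 members in the table it was found in 1, the window of the Meg3 start at base 109540996 of chromosome 12. A match or its absence describes the letters of the window only. H19 and Cdkn1c had no window in the table.

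All 10 genes were read in both pups, at 10 or more counts each, and their levels summed to 466 TPM in replicate 1 and 280 TPM in replicate 2 (mean 373 ± 131, SD, n = 2). For comparison, 19.0% of all mouse genes were read in both libraries, and 73.0% of the 9341 genes whose mean count reached 100. The paternally expressed genes summed to 331 and 201 TPM (266 ± 92.1) and the maternally expressed genes to 135 and 79.6 TPM (107 ± 39.3). Both sums were thus higher in replicate 1. H19 was the largest part of the maternal sum, at 106 and 49.1 TPM. The maternal genes Igf2r and Cdkn1c and the paternal gene Dlk1 were higher in replicate 2. Igf2, H19 and Mest gave 70.0% of the sum of all 10 in replicate 1 and 76.6% in replicate 2. In whole tissue RNA, fewer cells of a type and less RNA per cell cannot be told apart. With 1 library per pup, each from 13 pg of RNA, differences between pups cannot be told apart from differences between library preparations either.

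**Figure D1:**
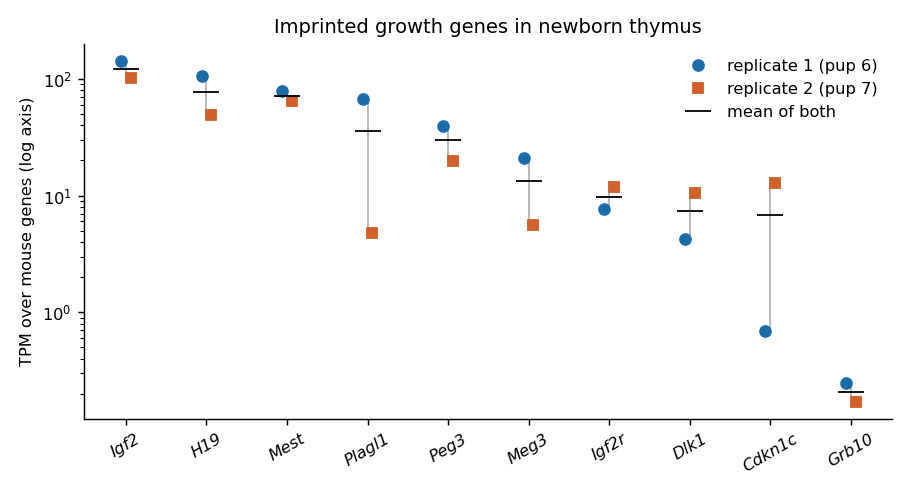
Level of each gene in TPM over mouse genes, on a log axis, in replicate 1 (circles, pup 6) and replicate 2 (squares, pup 7), with the mean of both as a bar. Igf2, H19 and Mest stand highest, Grb10 lies under 1 TPM in both pups, and Plagl1 and Cdkn1c are the 2 genes with the widest gaps, in opposite directions.

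Igf2 encodes insulin-like growth factor 2, a circulating and local growth factor of the fetus, and was the highest of the 10 by mean (ENSMUSG00000048583, chromosome 7, 142650766 to 142666816, minus strand). It had 3836 counts in replicate 1 and 2169 in replicate 2. Its level was 142 and 101 TPM (mean 121 ± 29.1, SD, n = 2), rank 1392 and 2112 among all mouse genes. The level was therefore higher in replicate 1, by 1.41-fold in TPM and by 2.17-fold in counts per 1000000 mouse counts.

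Igf2r encodes the receptor that takes IGF2 to lysosomes for breakdown and also sorts lysosomal enzymes (ENSMUSG00000023830, chromosome 17, 12682406 to 12769664, minus strand). It had 1377 and 2409 counts, or 7.67 and 11.9 TPM (9.77 ± 2.97), and was higher in replicate 2, opposite to Igf2. All its counts were assigned to the full-length model Igf2r-201 of 48 exons in both pups. TPM of Igf2r over TPM of Igf2 was 0.0540 in replicate 1 and 0.118 in replicate 2. Airn, the paternally expressed antisense RNA known to silence Igf2r, overlaps it over 28354 bases and had 0 and 3 counts. The length counted for Airn was 795 bases in replicate 1, although its gene runs from base 12741311 to 12860136. Its counts therefore cover only a small part of the gene. Whether the counting used strand is not given in the sources used here, so reads of such overlapping pairs cannot be told apart.

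H19 shares an imprinting control region with Igf2 and is known to be expressed from the opposite chromosome (ENSMUSG00000000031, position above). Its gene ends 72623 bases from that of Igf2. It had 3814 and 2061 counts and 106 and 49.1 TPM (77.4 ± 40.0). Like Igf2 it was higher in replicate 1, by 2.15-fold in TPM and 2.27-fold in counts per 1000000. TPM of H19 over TPM of Igf2 was 0.744 in replicate 1 and 0.488 in replicate 2. In the same region Ins2, an insulin gene that neighbours Igf2, had 0 counts in both pups, and the antisense gene Igf2os had 0 and 1.

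Dlk1 and Meg3 form the other coding and noncoding pair, 77665 bases apart on chromosome 12. Dlk1 encodes a membrane protein related to Notch ligands that holds back fat cell differentiation (ENSMUSG00000040856, 109452823 to 109463336, plus strand). It had 90 and 392 counts, or 4.28 and 10.5 TPM (7.41 ± 4.43), and was higher in replicate 2. Meg3 is a maternally expressed long noncoding RNA (ENSMUSG00000021268, 109541001 to 109571726, plus strand). It had 413 and 202 counts, or 20.9 and 5.58 TPM (13.2 ± 10.8), and was higher in replicate 1. The pair therefore changed order, with TPM of Meg3 over TPM of Dlk1 at 4.89 in replicate 1 and 0.529 in replicate 2. Downstream of Meg3, the maternal noncoding RNAs Rian and Mirg had 1 and 11 counts and 0 and 1, and the paternal gene Rtl1 had 1 and 0.

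Peg3 encodes a large zinc finger protein expressed in fetal mesoderm and brain (ENSMUSG00000002265, chromosome 7, 6703892 to 6730431, minus strand). It drew the most reads of the 10, with 6069 and 3941 counts, but its transcript is long and its level was 39.4 and 19.9 TPM (29.6 ± 13.8). It was higher in replicate 1. Its imprinted neighbours Usp29, 147 bases away on the other strand, and Zim1 had 0 counts in both pups.

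Mest, also known as Peg1, encodes an enzyme of the hydrolase fold family expressed in fetal mesoderm (ENSMUSG00000051855, chromosome 6, 30723547 to 30748465, plus strand). It had 3931 and 1920 counts, and 78.8 and 64.8 TPM (71.8 ± 9.90). In TPM the pups differed by 1.22-fold, the smallest gap of the 10, whereas in counts per 1000000 mouse counts the gap was 2.51-fold, both times with replicate 1 higher. Copg2, a coat protein gene, runs against Mest and overlaps it by 912 bases. It had 574 and 3948 counts, higher in replicate 2, and reads of the overlap may be divided between the 2 genes. Expected counts of Mest and Meg3 were not whole, unlike those of the other 8 genes (within 0.005), as happens where reads are divided among entries. The authors' standard deviation of the count was 5.27 and 1.26 for Mest and 17.9 and 3.34 for Meg3.

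Plagl1, also called Zac1, encodes a zinc finger factor that stops the cell cycle and regulates other imprinted genes (ENSMUSG00000019817, chromosome 10, 13060504 to 13131694, plus strand). It had 2238 and 540 counts and 66.5 and 4.77 TPM (35.6 ± 43.6), with replicate 1 higher. The gap was 13.9-fold in TPM and 5.09-fold in counts per 1000000. The length behind the TPM was 1747 bases in replicate 1 and 4999 bases in replicate 2. The authors' posterior mean for replicate 2 was 8.17 TPM over mouse genes, with their deposited interval at 6.67 to 9.76, above the TPM itself.

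Cdkn1c encodes p57, an inhibitor of cyclin-dependent kinases that restrains growth (ENSMUSG00000037664, chromosome 7, 143458339 to 143461050, minus strand). It had 25 and 531 counts, or 0.685 and 12.8 TPM (6.75 ± 8.58), and was higher in replicate 2. Per mouse count the ratio of replicate 2 over replicate 1 was 17.3 (95% exact interval 11.6 to 27.0, which covers read counting only). Kcnq1ot1, the paternal noncoding RNA of the same cluster that is known to silence Cdkn1c on its own chromosome, had 12 and 2837 counts over a length of 84395 bases, also higher in replicate 2. Its neighbours Phlda2, Slc22a18 and Kcnq1 had 0 counts in both pups, which allows up to 0.115 and 0.0940 counts per 1000000 mouse counts (3 counts, counting error only).

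Grb10 encodes an adaptor that binds the insulin and IGF receptors and restrains growth (ENSMUSG00000020176, chromosome 11, 11930508 to 12038683, minus strand). It was the lowest of the 10, with 10 and 14 counts, or 0.246 and 0.171 TPM (0.208 ± 0.0532). The ratio of replicate 2 over replicate 1 was 1.14 per mouse count with an interval of 0.471 to 2.87, so no difference was detectable at this depth. Its direction was opposite in TPM and in counts per 1000000. Ddc, the next gene, had 0 and 3 counts.

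Ordered by mean TPM, the genes ran Igf2, H19, Mest, Plagl1, Peg3, Meg3, Igf2r, Dlk1, Cdkn1c and Grb10. The ranges of the 2 pups overlapped between every pair of neighbours in that order except Cdkn1c and Grb10. With the authors' posterior means these ranges overlapped too, at 0.716 and 12.6 TPM for Cdkn1c and 0.897 and 0.853 TPM for Grb10, so no neighbours in the order were separated under both estimates.

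Differences between the libraries of the 2 pups were then set beside those of all genes. A gene was counted as apart when TPM plus 1 differed at least 4-fold, among genes whose mean count reached 100. Of the 9341 such genes, 50.9% were apart, against 2 of the 9 members tested, Plagl1 higher in replicate 1 (log2 ratio of replicate 2 over replicate 1 of -3.55) and Cdkn1c higher in replicate 2 (3.04). Grb10 was under the count minimum. With a pseudocount of 10 TPM the log2 ratio of Cdkn1c was 1.09 and Plagl1 alone was apart. The share of apart genes falls with the count. It was 77.5% of the 3385 genes with means from 100 to 1000, where 1 of 3 members was apart, and 50.7% of the 3412 genes from 1000 to 3000, where 1 of 4 was. From 3000 to 10000 it was 18.6% of 2093 genes and 0 of 2 members. The median absolute log2 ratio was 1.09 over the 9 members and 2.07 over all genes tested.

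**Figure D2:**
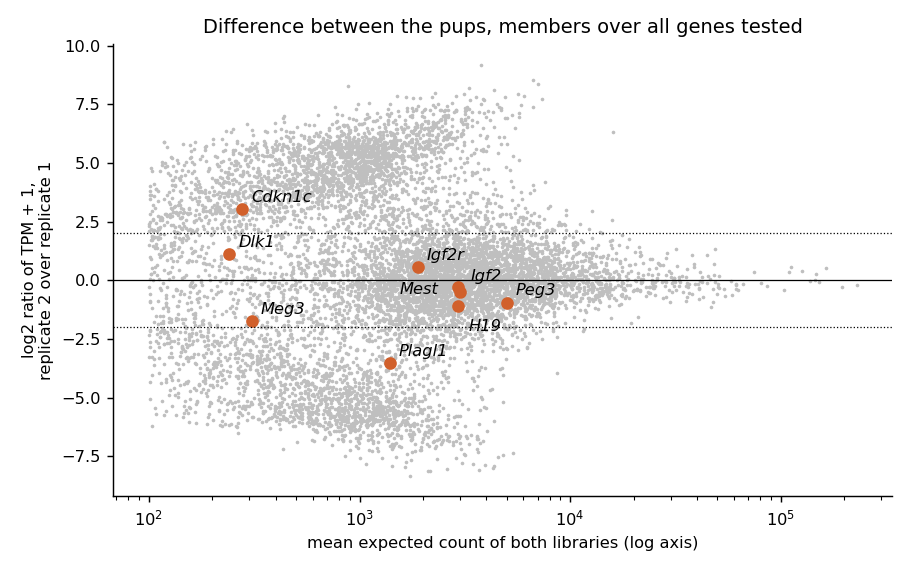
Log2 ratio of TPM plus 1, replicate 2 over replicate 1, against the mean expected count on a log axis, for the 9 members whose mean count reached 100 (large points) and all 9341 such genes (grey). Dotted lines mark 4-fold; Cdkn1c lies above the upper line and Plagl1 below the lower one.

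In TPM, 6 of the 9 members tested were higher in replicate 1, beside 47.0% of all genes tested, and Igf2r, Dlk1 and Cdkn1c were higher in replicate 2. The median log2 ratio was -0.49 over the members and 0.17 over all genes. Per mouse count, 5 members lay close together. Igf2, H19, Mest, Peg3 and Meg3 were higher in replicate 1 by 2.17-, 2.27-, 2.51-, 1.89- and 2.51-fold, at mean counts from 308 for Meg3 to 5005 for Peg3. A gap of 1.8- to 2.6-fold in that direction, a range chosen after these values were seen, was found in 6.07% of the 9341 genes. Because the range was drawn around these 5 members, their number in it cannot be weighed against that share. The 9341 genes were also not matched to them for count. The directions of all 9 members were the same in TPM and in counts scaled with edgeR factors, whereas the sizes were not. Mest moved from -0.28 to -1.19 on the log2 scale, Igf2 from -0.49 to -0.98, Meg3 from -1.74 to -1.09 and Plagl1 from -3.55 to -2.16.

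**Figure D3:**
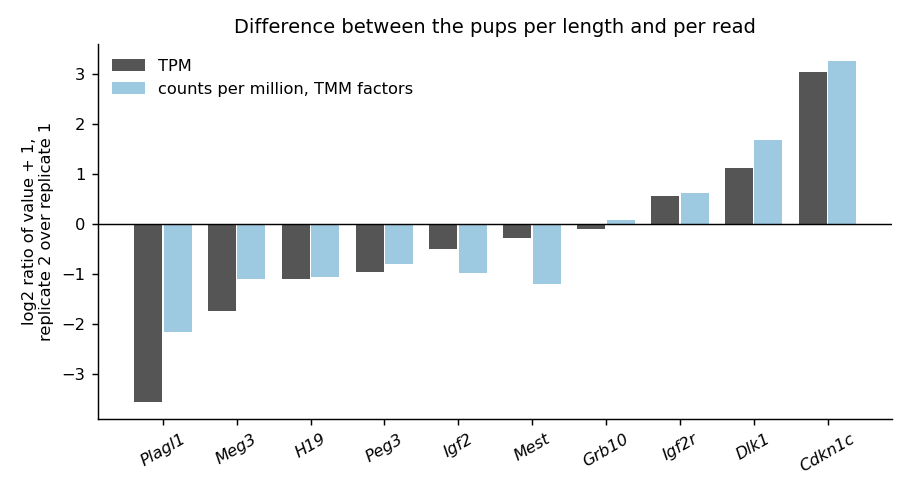
Log2 ratio of replicate 2 over replicate 1 for each gene, from TPM plus 1 (dark bars) and from counts per 1000000 with edgeR TMM factors plus 1 (light bars). Plagl1 and Meg3 are farther from 0 in TPM, Mest and Igf2 in counts, and Grb10 lies at -0.09 and 0.09.

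Marker genes of the cells that could hold these RNAs are given beside the result. The 12 mesenchymal markers summed to 1610 and 1587 TPM with 10 read in both pups, while Pdgfra had 1 and 0 counts and Twist1 had 0 in both. Sparc alone gave 959 and 573 TPM of these sums. Of 9 tested, 2 were at least 4-fold higher in replicate 2, among them Postn at 32.0 and 135 TPM. The 12 epithelial markers summed to 2989 and 3091 TPM. Of 11 tested, 4 were at least 4-fold higher in replicate 2 and 1 in replicate 1. The near-equal sums of these lists thus hold markers at unlike levels. The 8 endothelial markers summed to 290 and 121 TPM with 3 read in both and Kdr, Tek and Emcn at 0 in both. The 16 muscle markers summed to 1263 and 498 TPM, with 14 read in both pups and 2 in replicate 2 alone. The muscle and endothelial sums were both higher in replicate 1, as was the sum of the 10 genes. The epithelial and erythroid sums were higher in replicate 2. Endothelial markers were split, with Cdh5 at 1.28 and 25.6 TPM and Cldn5 at 70.3 and 0 TPM. Of 4 tested, 1 was at least 4-fold higher in each replicate. Among all genes tested, 29.4% were at least 4-fold higher in replicate 2 and 21.5% in replicate 1. The highest muscle marker was the actin gene Actc1 with 513 and 95.2 TPM, and the creatine kinase gene Ckm had 129 and 9.41 TPM. Other muscle markers ran the other way, with the actin gene Acta1 at 3.96 and 44.1 TPM and the filament gene Des at 0.0642 and 28.4 TPM, and of 11 tested 4 were at least 4-fold higher in replicate 1 and 3 in replicate 2. The 8 erythroid markers summed to 3527 and 9133 TPM with Klf1 at 0 in both. The part of these cells in the levels of the 10 genes was not tested.

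The 10 genes have 91 models in the tables, of which 17 were read in both pups, 26 in replicate 1 and 27 in replicate 2. The model with the largest share of the gene's counts was the same in both pups for 7 genes, H19, Igf2r, Peg3, Cdkn1c, Mest, Plagl1 and Dlk1, a tally added after the TPM shares were seen. By share of TPM, in which a short model weighs more per read, it was the same for 4, H19, Igf2r, Peg3 and Cdkn1c. Among 4268 mouse genes with 2 or more models and 10 or more counts in both pups, the leader was the same in 65.9% by counts and in 60.4% by TPM. H19-205 held 91.4% and 79.4% of H19, and Peg3-201 held 80.1% and 100% of Peg3. Cdkn1c-201 and Igf2r-201 held 100% in both pups.

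For Igf2 the largest share of replicate 1 went to Igf2-208, a processed transcript that starts 4466 bases inside the nearest promoter start, at 74.4% of TPM and 1853 counts, against 24.3% and 485 counts in replicate 2. Igf2-203, whose far upstream start is shown above, had 0 counts in replicate 1 and 765 in replicate 2, where it held 59.7%. The models Igf2-201 and Igf2-202, whose starts lie 30 bases apart at the downstream promoter, were read in both pups, with 588 and 79.3 counts for Igf2-201 and 1395 and 838 for Igf2-202. By counts Igf2-208 led in replicate 1 at 48.3% and Igf2-202 in replicate 2 at 38.6%, against 36.4% in replicate 1. Igf2-203 took 35.3% of Igf2 counts in replicate 2. It is 650 bases long, and its share of TPM is larger because a short model weighs more per read.

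For Mest, Mest-211, which starts at the CG-rich downstream promoter, held 99.4% of TPM in replicate 1 with 3926 counts and 32.3% in replicate 2 with 1184. It took 99.9% and 61.7% of Mest counts, the most in both pups. In replicate 2 the largest share of TPM, 65.3%, went to ENSMUST00000128398, a model of 836 bases with 720 counts that has no position in M21 and had 0 counts in replicate 1. Mest-210, with the upstream start, had 0 counts in both pups. For Plagl1 the short model Plagl1-208 (624 bases) led in replicate 1 at 75.8% with 540 counts and had 0 in replicate 2. There Plagl1-202 (5260 bases) led at 80.8% with 460 counts, against 24.2% and 1698 counts in replicate 1. Plagl1-202 was thus the model with most reads in both pups, and the lead in TPM of the other one came from its length.

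The remaining 3 genes rested on few reads. For Meg3 most reads went to a model of 1896 bases in replicate 1, with 242 counts there and 7.21 in replicate 2, and to one of 14548 bases in replicate 2, with 114 counts there and 64 in replicate 1. By TPM the short models led, Meg3-203 in replicate 1 at 66.5% with 102 counts and Meg3-208 in replicate 2 at 81.5% with 63.6 counts, and each had 0 in the other pup. The model Dlk1-205 had the most Dlk1 counts in both pups, 40.9 and 387, at 29.2% and 99.2% of TPM. In replicate 1 a model of 483 bases held more of the TPM, 35.8%, with 12.03 counts. Grb10-202 took all 10 counts of replicate 1 and Grb10-201 held 70.7% in replicate 2. Each share is the authors' estimate, and the libraries hold no second measure of it.

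**Figure D4:**
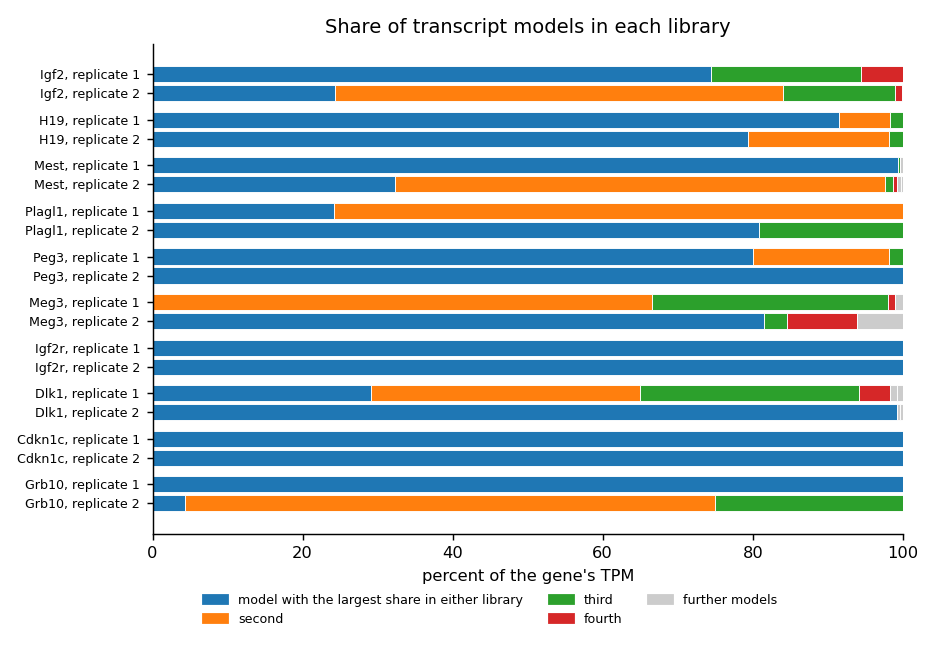
Percent of each gene's TPM held by its transcript models, 1 bar per library, with models coloured by the rank of their largest share. By this share, Igf2, Mest, Plagl1, Meg3, Dlk1 and Grb10 have another leading colour in replicate 1 than in replicate 2, while Igf2r and Cdkn1c are of 1 colour.

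Other imprinted genes were taken from a list. Of 49 further names 48 were matched, all but Peg13, and 16 were read in both pups, 3 in replicate 1 alone, 11 in replicate 2 alone and 18 in neither, beside 19.0% of all mouse genes read in both. Among the 15 whose mean count reached 100, 7 were at least 4-fold apart, beside 50.9% of all genes tested. Of the same 15, 5 were at least 4-fold higher in replicate 2, beside 29.4% of all genes tested, and 2 in replicate 1, beside 21.5%. Their median log2 ratio was 1.16. The paternally expressed ones summed to 168 and 191 TPM. Ndn, a growth-restraining gene of the Prader-Willi region, was the highest by mean at 94.0 and 56.4 TPM. Slc38a4, an amino acid transporter gene, had 2426 and 3 counts, Sfmbt2, a Polycomb gene, had 1 and 2409, or 62.7 TPM in replicate 2, above Ndn there, Snrpn, a splicing protein gene, had 9 and 1507, and Inpp5f, a phosphatase gene, stood at 7.66 and 18.3 TPM. Snurf, Sgce and Peg12 had 0 counts in replicate 1 and 37.3, 61 and 25 in replicate 2. Snurf shares its transcript with Snrpn, so the split between them is uncertain.

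The other maternally expressed genes summed to 453 and 807 TPM, of which Cd81, a tetraspanin of lymphocytes, gave 320 and 458 TPM. Tspan32, another tetraspanin, stood at 48.2 and 109 TPM, the ubiquitin ligase Ube3a at 19.2 and 76.1, Copg2 at 28.9 and 119 and Trappc9 at 36.5 and 12.1. Cd81, Tspan32, Ube3a and Trappc9 are known to be imprinted only in some tissues. Ascl2, a transcription factor of the same chromosome 7 region, had 0 and 1134 counts, and Slc22a3, near Igf2r, 0 and 12. Among genes with both parental products or tissue-dependent imprinting, Gnas, which encodes a G protein subunit, stood at 70.3 and 74.6 TPM (72.4 ± 3.03). Commd1 stood at 307 and 75.2 TPM and Blcap had 3 and 2374 counts.

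Of 21 listed partners of the IGF pathway, 10 were read in both pups, 5 in replicate 2 alone and 6 in neither, Insrr, Igfbp1, Igfals, Pappa, Stc2 and Igf2bp1. Of the 13 whose mean count reached 100, 8 were at least 4-fold apart, 4 in each direction, a share near the 50.9% of all genes. Their median log2 ratio was -0.92. Igf1, the other ligand, stood at 69.1 and 36.0 TPM (52.6 ± 23.4), below Igf2 in both pups. The insulin receptor gene Insr stood at 103 and 29.3 TPM and its substrate Irs2 at 38.6 and 18.3 TPM. Igf1r, which encodes a receptor through which IGF2 signals, stood at 0.556 and 2.73 TPM with 50 and 277 counts, and was named after its values were seen.

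Binding proteins of the pathway, which hold IGFs in tissue and blood, were read in different sets. Igfbp3 was alike in both pups at 29.9 and 26.8 TPM (28.4 ± 2.23). Igfbp6 had 1350 and 3 counts, while Igfbp2 had 0 and 1318 and Igfbp7 had 0 and 197. Igfbp4 and Igfbp5, named after their values were seen, had 1099 and 3 counts and 3791 and 208. Pappa2, a protease that cuts binding proteins, had 0 and 2791 counts and the growth hormone receptor gene Ghr had 0 and 915. The RNA-binding proteins Igf2bp2 and Igf2bp3, also named after their values were seen, had 1 and 971 counts and 3544 and 2.

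**Figure D5:**
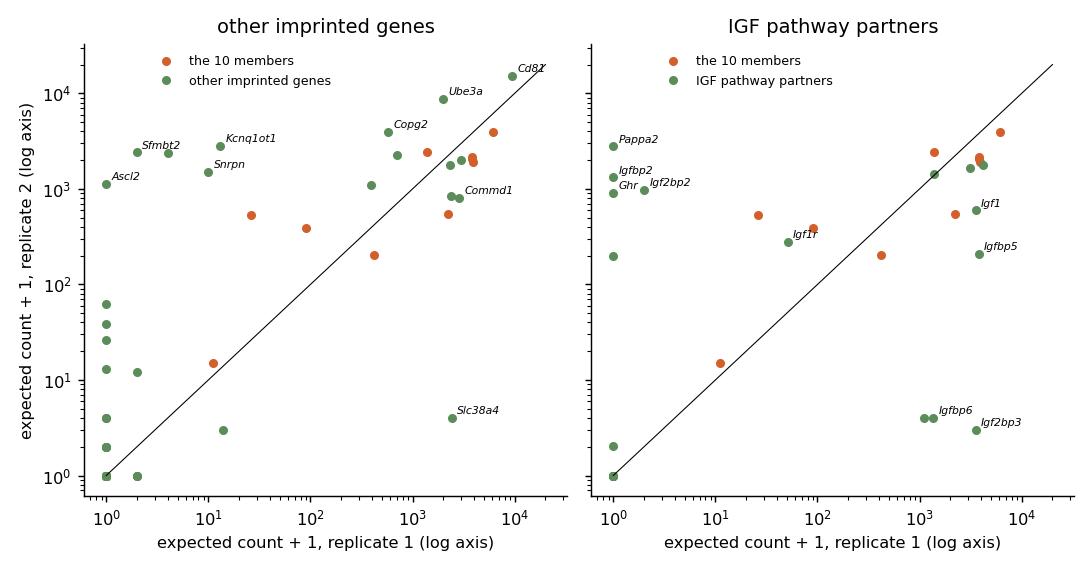
Expected count plus 1 in replicate 2 against replicate 1, on log axes, for the 10 members in both panels, with 49 other imprinted names (left, 48 matched) and 21 IGF pathway partners (right). The line marks equal counts. No member lies on an axis, whereas Ascl2, Pappa2, Igfbp2 and Ghr have 0 counts in replicate 1.

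Of 14 factors that bind or keep imprints, 9 were read in both pups and Zfp57, Dnmt3l, Dppa3 and Lin28a in neither. Trim28, a corepressor that keeps imprints, stood at 176 and 88.7 TPM, Uhrf1, which guides maintenance methylation, at 144 and 75.6 TPM, and Ctcf, the insulator protein that binds the control region between H19 and Igf2, at 77.0 and 52.8 TPM. Dnmt1, the maintenance methyltransferase, stood at 94.3 and 32.3 TPM, and the de novo enzyme Dnmt3a at 119 and 0.876. Of the 7 whose mean count reached 100, 2 were at least 4-fold apart, Dnmt3a and Zfp445, beside 50.9% of all genes.

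The genes most alike in level were sought among 5611 protein-coding or long intergenic noncoding genes with 10 or more counts in both pups, by the distance in log2(TPM + 1) over the 2 libraries. For Igf2 these were Eif2b1 (143 and 100 TPM) and Cytip (141 and 102 TPM), and for H19 Ints13 (107 and 49.2 TPM) and Daxx (107 and 48.5 TPM). For Plagl1 they were Snf8 (68.2 and 4.73 TPM) and Kcnj15, and for Cdkn1c Ccdc134 (0.653 and 12.3 TPM) and Ino80. The others were Snx2 and Coro1c for Mest, Wdfy1 and B4galt1 for Peg3, Gpcpd1 and Tns1 for Meg3, Gm11273 and Ppp1r12b for Igf2r, Wdhd1 and Notch2 for Dlk1, and Arid3a and Reep3 for Grb10, at distances from 0.0110 (Gm11273) to 0.180 (Notch2). With 2 libraries such likeness describes only the pair of levels.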

How the data were processed

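Genes, lists and the rule for named genes were chosen with earlier results of these data known. The deposited tables give, per the file headers, expected counts, TPM, posterior mean versions of both, interval bounds of TPM (a score here, whose level is not stated) and the percent of a gene's TPM held by each transcript. The labels give mm10 as assembly, and the submitters' processing notes list annotation M4. The columns carry names that RSEM writes; the sources used here name no aligner or program. Effective lengths lie 99 bases under the lengths.

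Of 43346 mouse IDs, 42462 were found in GENCODE M21 and 884 were not. Entries outside mouse genes held 3.72% and 3.27% of counts. TPM was rescaled to 1000000 over mouse genes (Python 3.11.15, pandas 2.3.3), as were posterior means and bounds. Log2 ratios used a pseudocount of 1 TPM, which understates changes of low genes. A gene was read at 1 or more counts. Means are given with the SD of 2 libraries. Counts were rounded for edgeR 4.0.16 and DESeq2 1.42.0, which gave scaling factors only. Intervals and limits cover counting error only, as reads carry no molecular identifiers in the tables. The 4-fold call was tried on simulated libraries that differed by counting error alone, apart from genes changed on purpose. Such libraries lack the wide spread between these 2, so the trial gives no error rate for the calls made here. Named were all members, up to 5 genes of each list by mean TPM, list genes at 10 or more counts in 1 library and under 1 in the other, list genes within 200 kb of a member, leading transcripts and the 2 genes most alike. Markers are mostly given as sums.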

Additional observations from a re-analysis of the deposited data

How the results depend on the processing

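With 2 libraries of 1 group there was no test. No paired analysis was possible because there is only 1 group. All 10 members were read in both pups with a minimum of 10 counts, with posterior mean counts and after thinning the deeper library, 7 at 100 counts and 8 at 1 TPM. The sum of the 10 (373 TPM) was 349 to 389 with posterior means, deposited TPM, no mitochondrial genes or thinning, and 280 to 466 with each library alone. The maternal sum was then 79.6 to 135 and the paternal sum 201 to 331. Scaled counts per 1000000, without length, gave 634 (edgeR) and 631 (DESeq2) for the 10, 189 and 189 for the maternal genes and 444 and 442 for the paternal genes. Members at least 4-fold apart numbered 2 of 9 (Cdkn1c and Plagl1), beside 50.9% of all genes tested. They stayed at 2 of 9 at 8-fold (41% of all genes) and with a pseudocount of 0.1 (52.7%). The same held with posterior means (50.1%) and both count scalings (52.8% each). With no count minimum they were 2 of 10, beside 11.9% of all genes. The number was 1 (Plagl1) with a pseudocount of 10, beside 27.4% of all genes, 1 (Plagl1) of 6 with means of 1000 or more counts, beside 35.7%, and 5 at 2-fold, beside 67.7%. Neither Cdkn1c nor Plagl1 changed sign under 5 alternatives each. Of 50 log2 ratios over 10 members 5 were marked as moved, for Cdkn1c between 1.09 and 4.04 and for Plagl1 to between -2.37 and -2.12. Ratios not marked could still change in size. That of Mest was -0.28 in TPM, -1.19 with edgeR factors and -1.15 with DESeq2 factors. Grb10, too low for the 4-fold call, lay at -0.09 in TPM, 0.09 with edgeR and 0.10 with DESeq2 factors. Of 60 alternative member means 51 stayed within 1 SD, as did 18 of 20 alternative transcript shares. That SD, of 2 pups, exceeds the mean itself for Plagl1 (43.6 against 35.6 TPM) and Cdkn1c (8.58 against 6.75 TPM). The 2 shares that moved were those of Igf2r-201 and Cdkn1c-201, at 93.3% and 73.8% by posterior means against 100%. For both the SD of the share was 0. The alternative means also include counts per 1000000, a unit without length, set against TPM. These tallies therefore say little about how stable the values are. The posterior mean of Grb10 was 0.875 TPM against 0.208, with too few reads to place it. The median log2 ratio of all genes was 0.17 in TPM, 0.20 with edgeR factors and 0.25 with DESeq2 factors. The leading transcript was the same in both pups for 4 members by TPM and, in a tally added after seeing the data, for 7 by counts.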
